A study of Zea mays with 6 samples.

Results

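Immature maize ears were compared for 2 classes of chromatin genes, those with a SET domain and those with an SNF2-family ATPase domain, chosen from the Pfam terms PF00856 and PF00176 in the gene annotation that the authors deposited. The SET class held 40 genes and the SNF2 class 45, together 85 of 42508 genes in the table. No gene belonged to both. The groups were 2 nearly isogenic recombinant inbred lines from a teosinte by maize cross, grown under standard conditions with no treatment. A12 carries the teosinte version of the kernel row number locus qKRN5.04b on chromosome 5, and B46 carries the maize version. Polyadenylated RNA was sequenced from primordia of 1.5 to 2.0 mm, taken at the 6 to 9 leaf stages when inflorescence meristems form spikelet pair meristems. Each line was sampled as 3 libraries, each a pool of at least 50 ears, and all came from a single stated batch. Each genotype is thus represented by 1 inbred line, so a difference between the lines cannot be told apart from any other genome segment in which they differ.

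SET domains transfer methyl groups to lysines, in most plant members to lysines of histones. Enhancer of zeste proteins, the catalytic subunits of Polycomb repressive complex PRC2, place a repressive mark, SUVH and SUVR proteins act in heterochromatin and DNA methylation, and trithorax and ASH1 types place marks of active genes. SNF2 proteins use ATP to move, evict or exchange nucleosomes, or to remodel other protein and DNA complexes in repair. In plant meristems both classes are known for keeping developmental regulators on or off as organs are specified. The names below come from the best Swiss-Prot match in the table, mostly an Arabidopsis protein. The LSMT group of SET genes was instead named by a Pfam domain. Roles are background from the species named with them, and several maize genes can share a name.

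Library totals were 14625831 to 15675012 counts in A12 and 15145371 to 15432882 in B46. A12 replicate 1 stood apart within its line. Its log2 CPM (library-scaled counts, with TMM factors) correlated at 0.937 and 0.97 with the other A12 libraries, which correlated at 0.981 with each other, and B46 libraries correlated at 0.969 to 0.989. Sums for marker genes are given for replicates 1 to 3 in order. KNOX genes, which mark ear meristems, summed to 1010, 1560 and 1400 CPM in A12 and 1370, 1270 and 1060 CPM in B46. Between 2 and 4 of 16 were at 0 reads in a library. Summed CPM was 2120, 1810 and 1940 in A12 and 1770, 1680 and 1350 in B46 for 46 K-box MADS genes of floral organs. It was 599, 149 and 262 in A12 and 167, 187 and 259 in B46 for 34 chlorophyll a/b-binding genes of green tissue. Of the MADS genes 8 to 19 were at 0 reads in a library, and of the chlorophyll-binding genes 5 to 8.

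Most members were transcribed in these ears. In the SET class 37 of 40 genes passed the filter on low counts, and in the SNF2 class 37 of 45. Levels between genes are given as FPKM, which is per length of gene. Over all 6 libraries the tested SET genes ranged from 1.21 to 59.8 FPKM with a median of 10.8, and the tested SNF2 genes from 0.223 to 86.0 FPKM with a median of 16.1. The median over all 22741 genes tested was 10.5 FPKM. The highest member was a gene annotated as DDM1 (Zm00004b010766), the remodeler that gives DNA methyltransferases access to heterochromatin in Arabidopsis, at 88.0 ± 30.1 FPKM in A12 and 84.1 ± 1.83 FPKM in B46 (SD, n = 3 each). An ISWI ATPase, which spaces nucleosomes (Zm00004b016880), followed at 80.7 ± 19.3 FPKM in A12 and 75.1 ± 6.15 FPKM in B46. SPLAYED (SYD, Zm00004b029959), a SWI/SNF ATPase that regulates meristem and floral genes in Arabidopsis, had 60.4 ± 3.60 FPKM in A12 and 68.0 ± 4.22 FPKM in B46. None of these 3 genes was called between the lines. In the SET class the highest genes matched SUVH1 (Zm00004b026497), at 50.3 ± 6.59 FPKM in A12 and 69.3 ± 12.5 FPKM in B46, and SUVH3 (Zm00004b035102), at 51.2 ± 4.76 FPKM in A12 and 58.1 ± 5.27 FPKM in B46.

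**Figure D1:**
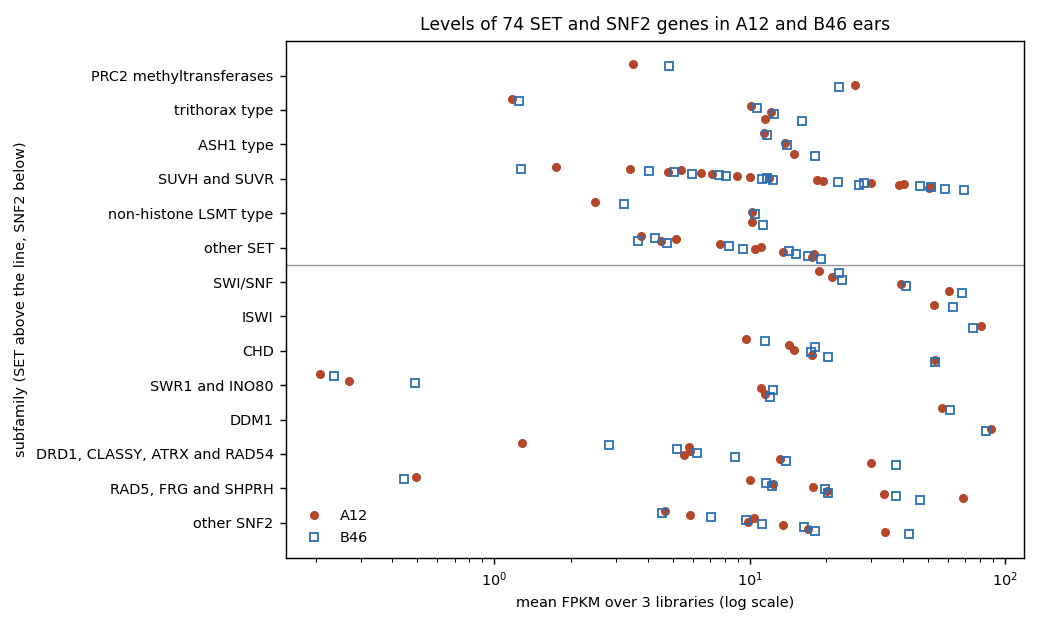
Mean FPKM over 3 libraries (x axis, log scale) of the 74 members that passed the filter, by subfamily (y axis), with A12 as filled circles and B46 as open squares. Levels ran from 1.21 to 59.8 FPKM over all SET genes and from 0.223 to 86.0 FPKM over all SNF2 genes. CLASSY 1 is among the genes whose lines lie farthest apart, at 1.29 FPKM in A12 and 2.81 FPKM in B46.

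The comparison of A12 with B46 asks whether chromatin regulators differ in transcript level between ears that carry the teosinte and the maize locus. Few members were called, and all of these were lower in A12: the trithorax-type gene ATX4 (Zm00004b027191), the SUVH and SUVR family gene SUVR4 (Zm00004b003409) and the SNF2 gene CLASSY 1 (Zm00004b037666). In edgeR's quasi-likelihood test over all genes, 0 SET genes rose, 2 fell and 35 were not called. In the SNF2 class 0 rose, 1 fell and 36 were not called. Over all genes tested 9.86% were called, 4.61% higher and 5.25% lower in A12, against 5.41% of tested SET genes and 2.70% of tested SNF2 genes. DESeq2 called 2 SET and 3 SNF2 genes, all lower in A12, where it called 15.4% of all genes, 7.77% lower. In bulk tissue, fewer cells of a type and less RNA per cell cannot be told apart.

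Small negative values prevailed in both classes. At an unadjusted p under 0.05, 9 of 37 SET genes and 8 of 37 SNF2 genes were lower in A12, against 13.6% of all genes. The median log2 fold change, A12 minus B46, was -0.16 for SET and -0.16 for SNF2 genes, against 0.01 for all genes tested. The SNF2 median was -0.09 without A12 replicate 1, and the SET median was -0.10 without B46 replicate 1. Values were below 0 for 30 of 37 SET genes and 29 of 37 SNF2 genes, against 48.8% of all genes. In 10 SET genes and 12 SNF2 genes every A12 library lay below every B46 library. That is 27% and 32.4% of tested members, against 17.2% of all genes. The opposite order was seen in 1 SET gene and 0 SNF2 genes, against 16.2% of all genes. These shares varied with gene length. Among genes outside both classes of at least 3000 bases, 58.3% were below 0 and 11.9% had the opposite order. Among those under 3000 bases the shares were 46.6% and 17.1%. The sizes were small, with 36 of 37 SET genes and 33 of 37 SNF2 genes within 0.5 on the log2 scale. The median standard error (SE) was 0.14 for SET and 0.12 for SNF2 genes. These counts describe the members and no test was made over the lists.

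**Figure D2:**
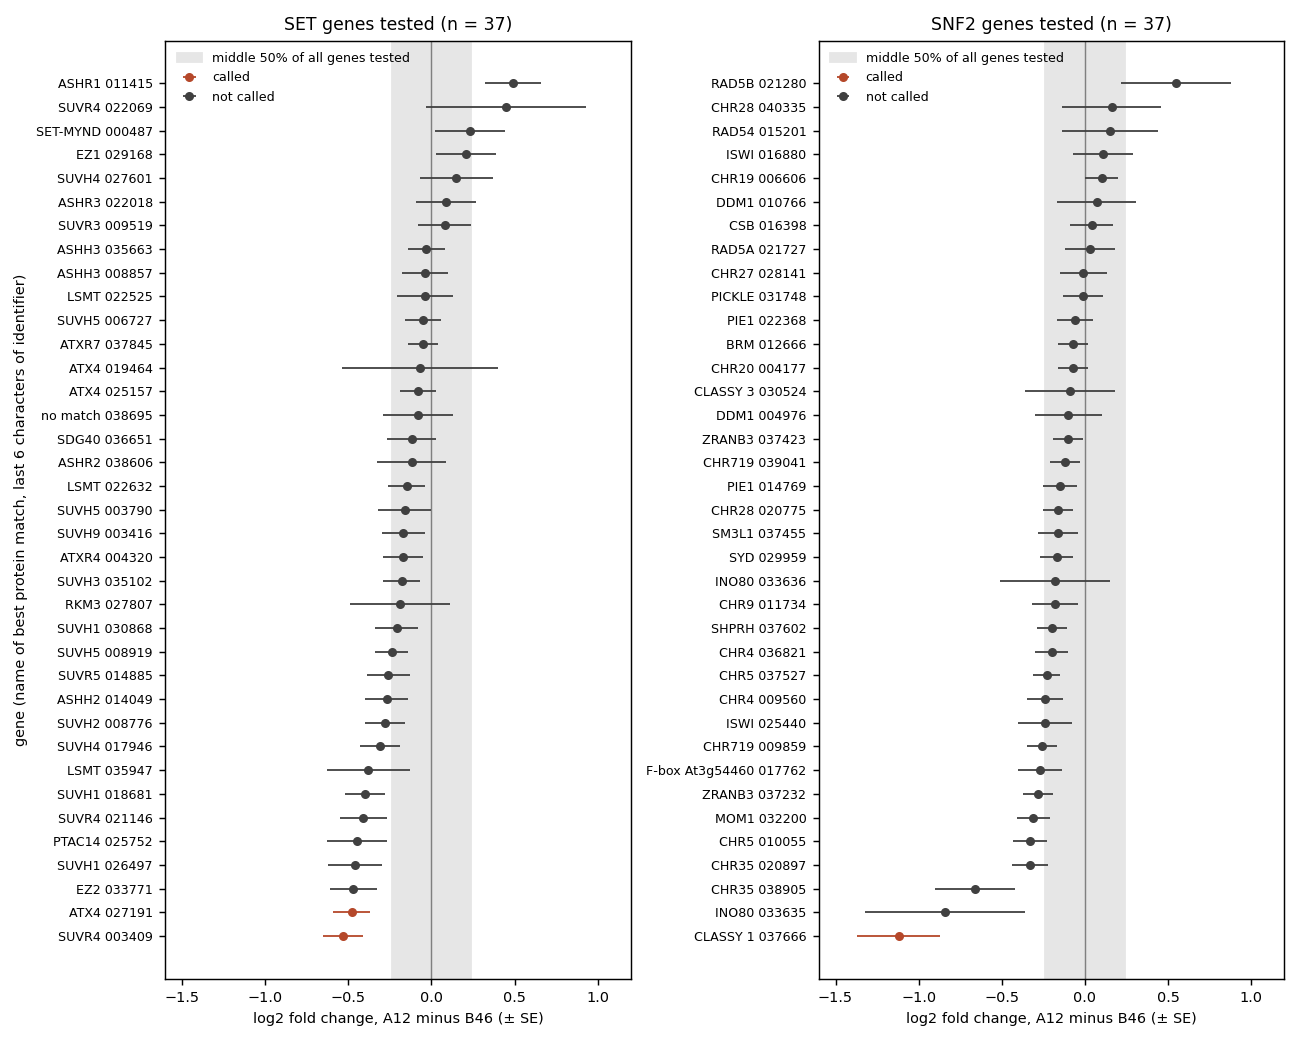
Log2 fold change, A12 minus B46, with its SE (x axis) for each tested SET gene (left, n = 37) and SNF2 gene (right, n = 37), sorted from highest to lowest. Called genes are coloured and the grey band holds the middle 50% of all genes tested. Most points lie left of 0, the SET genes between -0.53 and 0.49 and the SNF2 genes between -1.12 and 0.55, and the 2 called SET genes and 1 called SNF2 gene lie at the low end.

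Summed over its 40 genes, the SET class stood at 1260, 1400 and 1300 CPM in A12 replicates 1 to 3 and at 1590, 1550 and 1410 CPM in B46 replicates 1 to 3. All A12 sums were below all B46 sums, the nearest being A12 replicate 2 and B46 replicate 3. The SNF2 class summed to 4100, 5030 and 4540 CPM in A12 and to 5010, 5060 and 4520 CPM in B46, and these ranges overlapped. Members are longer than most genes, with a median length of 2296 bases for SET and 4515 bases for SNF2 genes against 1809 for all genes tested. Length moved with the difference between lines. Among other genes of at least 3000 bases the median log2 fold change was -0.06 (3978 genes), with 22.7% lower in A12 without overlap, and among other genes under 3000 bases it was 0.03 (18689 genes) with 16% lower without overlap. The 34 SNF2 genes of at least 3000 bases had a median of -0.16 and 35.3% lower without overlap. The 3 SNF2 genes under 3000 bases had a median of -0.10 and 0 lower without overlap. The 11 SET genes of at least 3000 bases had a median of -0.24 and 36.4% lower without overlap, and the 26 under 3000 bases a median of -0.14 and 23.1%. In both classes the longer genes thus had the lower median. The part of length in the class values was not tested.

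**Figure D3:**
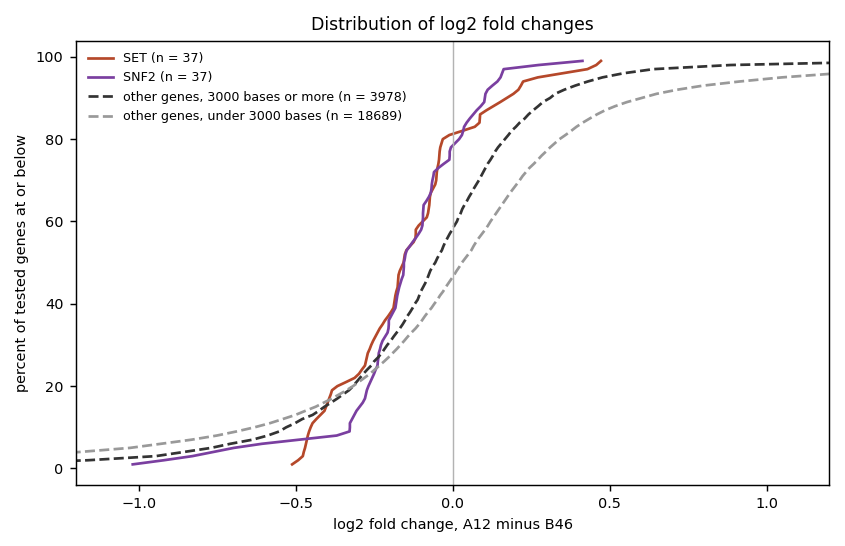
Cumulative distribution of the log2 fold change, A12 minus B46 (x axis), as the percent of tested genes at or below each value (y axis), for 37 SET genes, 37 SNF2 genes and all other genes split at 3000 bases. The curves cross at the low end, and from near the median upward both member curves run left of both curves of other genes, with medians of -0.16 and -0.16 against -0.06 for other long genes and 0.03 for other short genes.

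The enhancer of zeste genes, which methylate histone H3 as part of PRC2, were represented by EZ1 and EZ2, both matched to maize proteins. EZ2 (Zm00004b033771, chromosome 9, 139259322 to 139270299) had 12.3, 11.3 and 10.4 CPM in A12 and 13.9, 17.4 and 15.9 CPM in B46. All A12 libraries lay below all B46 libraries, but the gene missed the threshold (log2 fold change -0.47 ± 0.14 SE, adjusted p = 0.079 by edgeR). EZ1 (Zm00004b029168, chromosome 6), the more abundant copy, had 65.1, 108 and 87.9 CPM in A12 and 70.9, 74 and 81.6 CPM in B46. Its A12 libraries fell on both sides of B46 (log2 fold change 0.21 ± 0.18 SE, adjusted p = 0.50 by edgeR). A partner of PRC2 with a VEFS box, annotated as EMF2B (Zm00004b005142), was not called either (log2 fold change -0.18 ± 0.12 SE, adjusted p = 0.37 by edgeR).

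Of 4 trithorax-type genes, which methylate histone H3 at active genes, 0 rose, 1 fell and 3 were not called. Over all genes tested 9.86% were called, 5.25% lower in A12. The called gene, ATX4 (Zm00004b027191, chromosome 8, 153347112 to 153356749), had 42.3, 50.5 and 50.0 CPM in A12 and 68.0, 70.1 and 60.8 CPM in B46. The groups did not overlap, and the A12 mean was 71.7% of the B46 mean (log2 fold change -0.48 ± 0.11 SE, adjusted p = 0.036 by edgeR). The call was lost without A12 replicate 3 (adjusted p = 0.12) or without B46 replicate 1, 2 or 3 (edgeR's adjusted p = 0.13, 0.16 and 0.051). Its relative of the same name, Zm00004b025157, had 34.3, 42.1 and 41.7 CPM in A12 and 42.8, 40.6 and 41.6 CPM in B46 (log2 fold change -0.08 ± 0.11 SE, adjusted p = 0.68 by edgeR). The deposited table gives both a PWWP domain, and only the relative has PHD fingers. The third ATX4-like gene had 8 to 25 reads in a library, and ATXR7 (Zm00004b037845) had a log2 fold change of -0.05 (SE 0.09).

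The ASH1 type, which methylates H3 over transcribed genes, held 3 genes, of which 0 were called by edgeR or DESeq2 and 0 reached an unadjusted p under 0.05. ASHH2 (Zm00004b014049) is the only member in a chromosome 5 segment that earlier results of these data had marked out as dense in calls. It lies from 175996969 to 176010458 and is known in Arabidopsis for its effect on flowering time. It had 71.2, 99.8 and 89.8 CPM in A12 and 103, 106 and 106 CPM in B46, with A12 replicate 1 farthest from B46 (log2 fold change -0.27 ± 0.13 SE, adjusted p = 0.23 by edgeR). Reads of this gene were thus abundant in both lines. The 2 ASHH3-like genes had log2 fold changes of -0.04 and -0.03.

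SUVH and SUVR genes, the largest SET subfamily with 18 genes, link histone methylation with DNA methylation in Arabidopsis. Of 16 tested, 0 rose, 1 fell and 15 were not called. Values were below 0 in 13 of 16, with a subfamily median of -0.23, and 6 had every A12 library below every B46 library. Of all genes tested 9.86% were called, 5.25% lower in A12. In that same set 48.8% were below 0 and 17.2% had every A12 library below every B46 library. SUVR4 (Zm00004b003409, chromosome 1, 204407754 to 204414171), the called gene, had 49.6, 54.1 and 59.6 CPM in A12 and 89.6, 75.2 and 71.1 CPM in B46. The lines did not overlap, and the A12 mean was 69.2% of the B46 mean (log2 fold change -0.53 ± 0.12 SE, adjusted p = 0.037 by edgeR). The call was lost without A12 replicate 2 or 3 (edgeR's adjusted p = 0.068 and 0.097) or without B46 replicate 1, 2 or 3 (0.13, 0.13 and 0.051).

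The other SUVR4-like gene of high level, Zm00004b021146 on chromosome 4, had 106, 133 and 118 CPM in A12 and 175, 169 and 132 CPM in B46. A12 replicate 2 overlapped B46 replicate 3 (log2 fold change -0.41 ± 0.14 SE, adjusted p = 0.11 by edgeR). The rarest SUVR4-like gene, Zm00004b022069, had the largest positive value of the subfamily, with 4.64, 1.11 and 2.79 CPM in A12 and 1.96, 2.04 and 2.26 CPM in B46 (log2 fold change 0.45 ± 0.48 SE, adjusted p = 0.59 by edgeR). Its A12 libraries lay on both sides of B46. The SUVH1-like gene Zm00004b026497, the most abundant SET gene, had 112, 95.7 and 88.0 CPM in A12 and 156, 143 and 109 CPM in B46, with 1 overlap (log2 fold change -0.46 ± 0.16 SE, adjusted p = 0.11 by edgeR). The best match of Zm00004b026497 is the SUVH1 protein of tobacco. In Arabidopsis SUVH1 and SUVH3 bind methylated DNA and promote transcription nearby. The other 2 tested SUVH1-like genes had log2 fold changes of -0.40 (Zm00004b018681) and -0.21 (Zm00004b030868), and SUVH3 had -0.18 (Zm00004b035102). SUVH2 and SUVH9 recruit RNA polymerase to methylated DNA in Arabidopsis. Both had A12 below B46 in every library, with log2 fold changes of -0.28 (SE 0.12) and -0.17 (SE 0.13), and neither was called.

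Neither of the pair annotated as SUVH4, the enzyme called KRYPTONITE in Arabidopsis, was called. Zm00004b017946 had 13.4, 12.4 and 11.4 CPM in A12 and 14.7, 15.6 and 15.8 CPM in B46 (log2 fold change -0.31 ± 0.12 SE, adjusted p = 0.16 by edgeR). The abundant copy Zm00004b027601 had 54.5, 98.5 and 85.3 CPM in A12 and 79.7, 75.9 and 59.4 CPM in B46 (log2 fold change 0.15 ± 0.22 SE, adjusted p = 0.71 by edgeR). The lines were separate in the rarer copy and overlapped in the abundant one. The difference between the copies was not tested. Reads of similar copies may be shared out between them in a way that the sources used here do not give, which holds for each pair named here.

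Among the remaining SET genes 0 were called. The 3 genes of the LSMT type were grouped by a Pfam domain, Rubisco LSMT substrate-binding. Only Zm00004b035947 has a Swiss-Prot match, a chloroplast enzyme, so the targets of the others are not known from the annotation. The 3 genes had log2 fold changes of -0.38, -0.15 and -0.04. The highest of them, Zm00004b022632, had 22.2, 20.7 and 23.6 CPM in A12 and 22.7, 25.1 and 26.1 CPM in B46. ASHR1 (Zm00004b011415, chromosome 5, 12186121 to 12192168) was the SET gene with the largest positive value and the only one with every A12 library above every B46 library. It had 9.41, 11 and 8.76 CPM in A12 and 6.55, 6.37 and 7.88 CPM in B46, with 135 to 158 reads a library in A12 and 100 to 122 in B46 (log2 fold change 0.49 ± 0.17 SE, adjusted p = 0.12 by edgeR). PTAC14 (Zm00004b025752), a component of the plastid transcription machinery in Arabidopsis, had 24.0, 15.3 and 16.4 CPM in A12 and 26.2, 24.6 and 25.1 CPM in B46 (log2 fold change -0.45 ± 0.18 SE, adjusted p = 0.16 by edgeR). Within A12 its order followed that of the chlorophyll-binding genes, which summed to 599, 149 and 262 CPM. In B46 those genes summed to 167, 187 and 259 CPM. The order differed there, with PTAC14 highest in B46 replicate 1, where their sum was lowest. The part of the chlorophyll-binding genes in the PTAC14 value was not tested. SDG40 (Zm00004b036651), the most abundant gene of this remainder by FPKM, had a log2 fold change of -0.12 (SE 0.15).

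**Figure D4:**
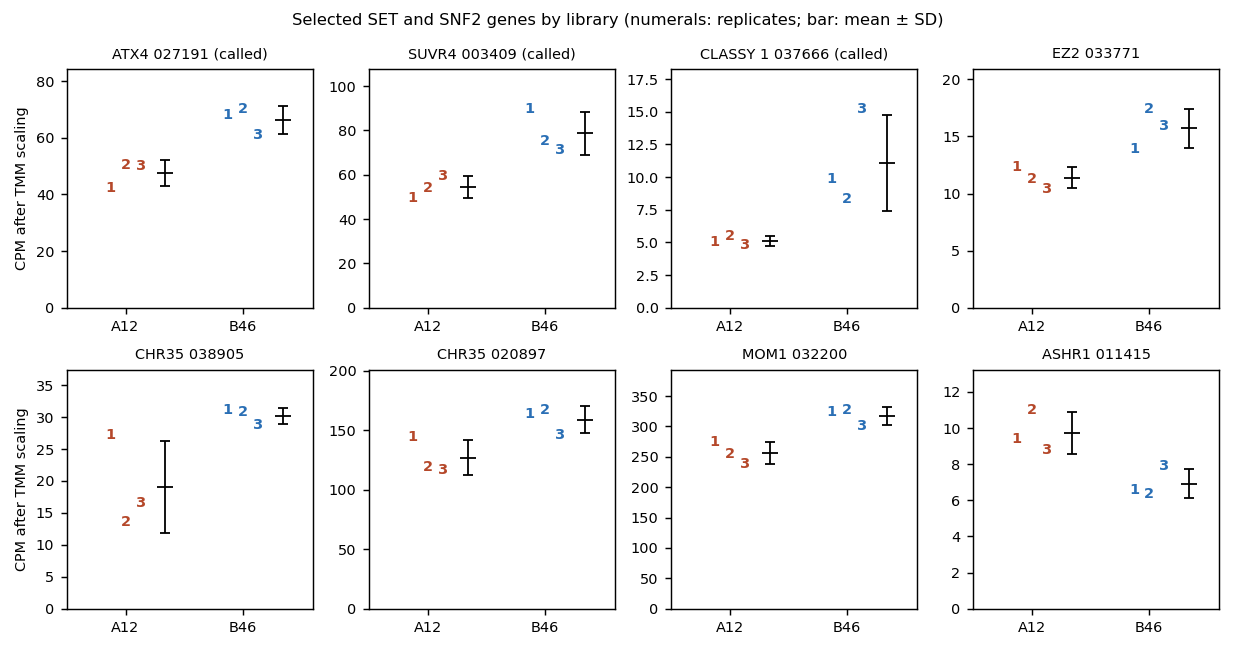
CPM after TMM scaling (y axis, from 0) of 8 SET and SNF2 genes in each library of A12 (left) and B46 (right), where numerals are replicates and the bar is the mean ± SD over 3 libraries. The A12 libraries lie below the B46 libraries in 7 panels and above them in the ASHR1 panel, and of the 8 genes ATX4, SUVR4 and CLASSY 1 were called. The 8 genes were picked with their values known, so the separation in each panel follows from the choice. Genes whose lines overlapped, such as SUVH1 (Zm00004b026497), are not shown. Among all tested members, every A12 library lay below every B46 library in 10 of 37 SET genes and 12 of 37 SNF2 genes.

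SWI/SNF ATPases, which evict nucleosomes at promoters and enhancers of developmental genes, had 0 calls among 4 genes, with 1 at an unadjusted p under 0.05 and 0 called by DESeq2. SYD had 740, 804 and 719 CPM in A12 and 881, 876 and 788 CPM in B46, so that A12 replicate 2 overlapped B46 replicate 3 (log2 fold change -0.17 ± 0.10 SE, adjusted p = 0.33 by edgeR). BRAHMA (BRM, Zm00004b012666) had a log2 fold change of -0.07 (SE 0.09), and the 2 genes annotated as CHR719 had -0.26 (SE 0.09) and -0.12 (SE 0.09). Their partners, the SWI3 scaffold proteins and the SNF5 homologue BSH, were among 9 SWIRM genes and 1 SNF5 gene, of which 0 were called by edgeR or DESeq2. The SNF5 gene had a log2 fold change of -0.03. The SWIRM genes had a median of 0.04 and ranged from -0.25 to 0.38, and 1 of them, SWI3A (Zm00004b007144, log2 fold change 0.38 ± 0.12 SE, adjusted p = 0.096 by edgeR), was under 0.05 before adjustment.

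The CHD family, with chromodomains that read methylated histones, had values below 0 in 5 of 5 genes and 0 calls by edgeR. Of all genes tested 48.8% were below 0, and of other genes of at least 3000 bases 58.3%. PICKLE (Zm00004b031748), which maintains repression of embryonic genes in Arabidopsis seedlings, was the closest to equal, with 304, 293 and 267 CPM in A12 and 314, 307 and 249 CPM in B46 (log2 fold change -0.01 ± 0.12 SE, adjusted p = 0.97 by edgeR). The 2 CHR5-like genes, of the CHD1 kind, were lower in every A12 library. Zm00004b010055 had 89.6, 91.0 and 92.8 CPM in A12 and 111, 127 and 106 CPM in B46 (log2 fold change -0.33 ± 0.10 SE, adjusted p = 0.075 by edgeR), and DESeq2 called it (adjusted p = 0.035). Zm00004b037527 had 88.3, 90.1 and 85.3 CPM in A12 and 101, 106 and 101 CPM in B46 (log2 fold change -0.23 ± 0.08 SE, adjusted p = 0.12 by edgeR). The 2 CHR4-like genes had log2 fold changes of -0.20 and -0.24.

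Of the ISWI pair, Zm00004b016880 had 269, 440 and 387 CPM in A12 and 348, 362 and 308 CPM in B46 (log2 fold change 0.11, SE 0.18), and Zm00004b025440 had 153, 225 and 200 CPM in A12 and 235, 248 and 200 CPM in B46 (log2 fold change -0.24, SE 0.16). In both, A12 replicate 1 was the lowest of all 6 libraries. SWR1 and INO80 ATPases place and remove the histone variant H2A.Z. The 2 genes annotated as PIE1, the SWR1 ATPase that delays flowering in Arabidopsis, had 81.1, 97.5 and 85.0 CPM in A12 and 101, 101 and 90.3 CPM in B46 (Zm00004b014769, log2 fold change -0.15, SE 0.10), and 79.2, 101 and 83.3 CPM in A12 and 89.6, 93.6 and 90.9 CPM in B46 (Zm00004b022368, log2 fold change -0.06, SE 0.11). None of these 4 genes was called by edgeR or DESeq2, and 0 of the 4 reached an unadjusted p under 0.05. The INO80-like pair had 16 to 69 reads in a library.

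The subfamily of DRD1, CLASSY, ATRX and RAD54 serves RNA-directed DNA methylation and recombination, and it held the SNF2 gene that was called. CLASSY proteins bring RNA polymerase IV to the loci where it makes precursors of small RNAs in Arabidopsis. CLASSY 1 (Zm00004b037666, chromosome 7, 179535295 to 179539975) had 74, 79 and 74 reads in A12 and 150, 130 and 236 reads in B46, or 5.04, 5.5 and 4.8 CPM in A12 and 9.82, 8.29 and 15.2 CPM in B46. A12 was narrow and B46 wide, with B46 replicate 3 the highest, and the A12 mean was 46% of the B46 mean (log2 fold change -1.12 ± 0.25 SE, adjusted p = 0.035 by edgeR). Without B46 replicate 3 the log2 fold change was -0.83 (adjusted p = 0.058). The call was also lost without A12 replicate 2 or 3 (edgeR's adjusted p = 0.055 and 0.14) or B46 replicate 1 or 2 (0.086 and 0.063).

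CHR35, known as DRD1, acts with RNA polymerase V in the same pathway in Arabidopsis. The rarer gene of that name, Zm00004b038905, had 27.2, 13.5 and 16.6 CPM in A12 and 31.1, 30.8 and 28.7 CPM in B46 (log2 fold change -0.66 ± 0.24 SE, adjusted p = 0.13 by edgeR). The abundant gene, Zm00004b020897, had 144, 119 and 117 CPM in A12 and 164, 167 and 146 CPM in B46 (log2 fold change -0.33 ± 0.11 SE, adjusted p = 0.12 by edgeR). In both, A12 lay below B46 in every library, with A12 replicate 1 nearest to B46. CLASSY 3 (Zm00004b030524) had 17.9, 40.2 and 34.5 CPM in A12 and 34.2, 31.2 and 33.3 CPM in B46, so that 1 A12 library was low and the others were at or above B46 (log2 fold change -0.09, SE 0.27). MOM1 (Zm00004b032200, grouped with other SNF2 genes), a silencing factor in Arabidopsis that acts without loss of DNA methylation, had 275, 255 and 238 CPM in A12 and 323, 327 and 301 CPM in B46. The lines were separate (log2 fold change -0.31 ± 0.10 SE, adjusted p = 0.086 by edgeR), and DESeq2 called the gene (adjusted p = 0.028).

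The RAD5, FRG and SHPRH genes, several of them with RING domains of ubiquitin ligases and roles in DNA repair, had 0 calls by edgeR or DESeq2 among 7 tested and 0 at an unadjusted p under 0.05. RAD5B (Zm00004b021280, chromosome 4, 63305443 to 63312073), the most abundant of them, had the largest positive value of the SNF2 class. It had 139, 400 and 319 CPM in A12 and 192, 191 and 201 CPM in B46 (log2 fold change 0.55 ± 0.33 SE, adjusted p = 0.33 by edgeR). A12 replicate 1 was below all B46 libraries and the other A12 libraries above them. The other 6 tested genes had log2 fold changes from -0.20 (SHPRH) to 0.16 (the rarer CHR28), with CHR27 at -0.01 and RAD5A at 0.03. Other repair ATPases, the Cockayne syndrome protein CSB and the pair annotated as ZRANB3, had 0.04, -0.28 and -0.10.

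In several members A12 replicate 1 lay far from the other A12 libraries. Relative to the mean of the other A12 libraries it was under 0.7 in 5 of 37 SET genes and 6 of 37 SNF2 genes, 13.5% and 16.2%, where 14.0% of all genes tested were that low. It was correspondingly high, above 1/0.7 of that mean, in 4 SET genes and 1 SNF2 gene, 10.8% and 2.70%, where 15.4% of all genes were. The high members were the rarest tested SUVR4-like gene (2.38 times the other A12 mean), the rarest ATX4-like gene (1.84), PTAC14 (1.52), SUVH5 (Zm00004b003790, 1.43) and CHR35 (Zm00004b038905, 1.81). The low members, like the high ones picked after their values were seen, include RAD5B at 0.386 of the other A12 mean, RAD54 at 0.463, CLASSY 3 at 0.478, the DDM1 pair at 0.519 and 0.623, SUVH4 (Zm00004b027601) at 0.593 and EZ1 at 0.663. DDM1 (Zm00004b010766) had 174, 362 and 309 CPM in A12 and 273, 271 and 262 CPM in B46, and Zm00004b004976 had 153, 259 and 230 CPM in A12 and 254, 237 and 195 CPM in B46. Genes with a C-5 cytosine methyltransferase domain summed over 7 genes to 717, 1550 and 1300 CPM in A12 and to 934, 923 and 1020 CPM in B46. Of these, 4 genes annotated as DNA (cytosine-5)-methyltransferase 1, 1B or 3 were lowest in A12 replicate 1, and 3 were lowest in A12 replicate 3, the DRM2 pair and a gene matched to a tRNA methyltransferase. Core histones, which mark replicating cells, summed over 66 genes to 22500, 34800 and 32500 CPM in A12 and to 21500, 21200 and 20600 CPM in B46. Between 13 and 14 of the core histone genes were at 0 reads in a library. The part of replicating cells in the values of DDM1, RAD5B and RAD54 was not tested.

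**Figure D5:**
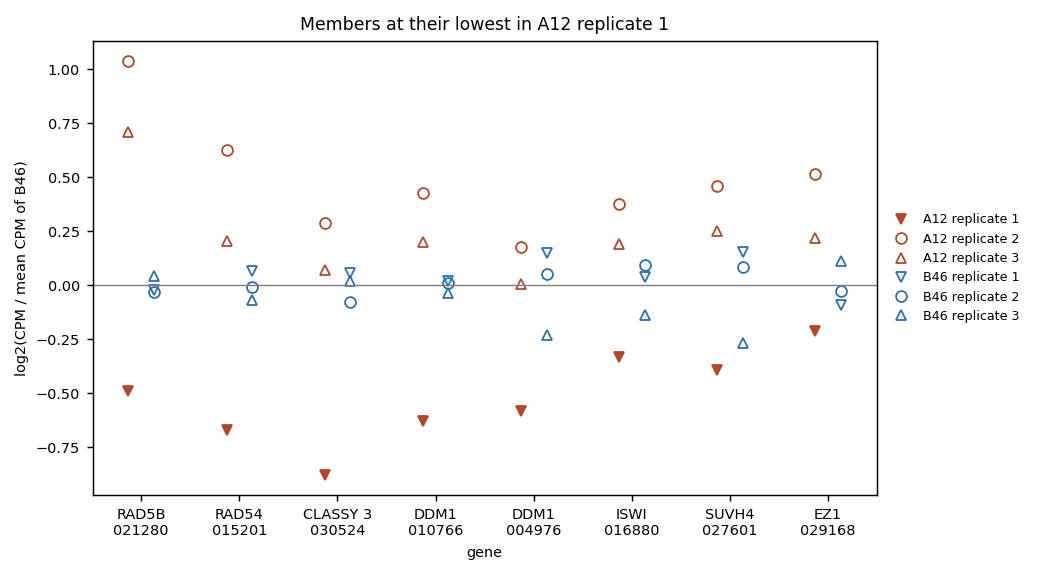
Log2 of CPM relative to the B46 mean (y axis) in each library for 8 members (x axis) that had their lowest value in A12 replicate 1, with A12 at the left and B46 at the right of each gene. The filled triangles of A12 replicate 1 lie below 0 and below every other library in all 8 genes, and A12 replicates 2 and 3 lie above 0. The 8 genes were picked after their values were seen, so this pattern follows from the choice. Other members lowest in A12 replicate 1, such as ATX4 (Zm00004b027191) and SUVR4 (Zm00004b003409), had every A12 library below every B46 library.

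Without A12 replicate 1, edgeR called 6 SET genes, all lower in A12, and 8 SNF2 genes, 2 higher and 6 lower. Over all genes 19.3% were called in that fit, 10.4% higher and 8.88% lower, against 16.2% of SET and 21.6% of SNF2 genes. The SET genes were ATX4, SUVR4, EZ2 (adjusted p = 0.042), SUVH1 (Zm00004b026497, adjusted p = 0.039), PTAC14 (adjusted p = 0.0070) and SUVH5 (Zm00004b003790, adjusted p = 0.047). The SNF2 genes that were higher were RAD5B (log2 fold change 0.89 ± 0.10 SE, adjusted p = 0.0026 by edgeR) and DDM1 (Zm00004b010766, 0.32, edgeR's adjusted p = 0.044). Those that were lower were CLASSY 1, both CHR35 genes, MOM1, ZRANB3 (Zm00004b037232) and the F-box protein At3g54460 match (Zm00004b017762), with edgeR adjusted p from 0.0033 to 0.035. The CHR35 gene Zm00004b038905 then had a log2 fold change of -1.0 (SE 0.13). Other fits called fewer members. Without A12 replicate 2 edgeR called 1 SET and 0 SNF2 genes, with 9.41% of all genes called. Without A12 replicate 3, B46 replicate 1, B46 replicate 2 or B46 replicate 3 it called 0 in either class, with 1.73%, 3.07%, 1.86% and 6.09% of all genes called. With the replicate number as a block it called 0 in either class and 4.25% of all genes. On the FPKM values limma called 1 SET and 0 SNF2 genes with either pseudocount, 0.1 or 1, and 8.49% and 8.43% of all genes. Without a filter it called 0 members and 5.96% of all genes.

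Of the remaining partner lists, JmjC demethylases, which remove histone methyl groups, had 0 calls by edgeR or DESeq2 among 16 tested genes, a median of -0.09 and 1 gene at an unadjusted p under 0.05. Over all genes 27.2% were at an unadjusted p under 0.05 in either direction. The C-5 methyltransferase genes had 0 calls by either tool among 7 (median 0.16, 0 at an unadjusted p under 0.05). Without A12 replicate 1 their median was 0.43 and edgeR called 3, all higher in A12, Zm00004b040271, Zm00004b006323 and Zm00004b034947 (adjusted p = 0.0040, 0.0019 and 0.044). Over all genes 19.3% were called without that library, 10.4% higher and 8.88% lower in A12. Histone deacetylases had 0 calls by edgeR among 11 (median -0.05, 4 at an unadjusted p under 0.05). DESeq2 called 2 of the 11, where it called 15.4% of all genes. One gene of that list, Zm00004b021332, has its best match to an aspartokinase and homoserine dehydrogenase, so that its place rests on the Pfam term. Without A12 replicate 1 edgeR called 1 JmjC gene higher in A12, and 1 deacetylase higher and 1 lower, and the medians were 0.02 for JmjC genes and 0.01 for deacetylases. MYST acetyltransferases had 0 calls among 2 by either tool (median -0.17, 0 at an unadjusted p under 0.05), as had the 1 VEFS-box gene. Of 18 SWIB genes, which include SWI/SNF subunits, 0 rose, 1 fell and 17 were not called, where edgeR called 9.86% of all genes. The called gene (Zm00004b026170, chromosome 8), matched to an uncharacterised Arabidopsis protein, had 101, 94.7 and 101 CPM in A12 and 154, 153 and 147 CPM in B46 (log2 fold change -0.61 ± 0.08 SE, adjusted p = 0.0068 by edgeR). The lines were well apart, and the call was lost without A12 replicate 3 (adjusted p = 0.054) or B46 replicate 2 (adjusted p = 0.055).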

How the data were processed

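For each of 6 libraries the authors deposited gene-level read counts, not normalized, together with FPKM values. Per the submitters' processing notes, the tools included HISAT2 2.0.5 and DESeq2 1.20.0. No source used here names the build, the counting tool or the strand setting, so coordinates are printed as the table lists them and overlapping or antisense genes cannot be told apart. Groups and replicate numbers came from the sample titles. Members were found by Pfam term and grouped by Swiss-Prot name, or for the LSMT type by a Pfam domain. The members, the subfamilies and the lists were chosen with earlier results of these data known.

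The counts went into edgeR 4.0.16 (R 4.3.3). The default filter left 22741 genes, libraries were scaled by TMM, and the quasi-likelihood F-test was two-sided with Benjamini-Hochberg adjustment over all genes. Called genes had an adjusted p under 0.05. The SE is the log2 fold change divided by the square root of F. Replicates were separate pools of ears, which differed by more than sampling noise (chi-square per degree of freedom 3.02 to 41.8). Named genes were called members, the highest member per subfamily by FPKM, the 3 largest uncalled changes per class with 50 or more counts on average in a line, members in 2 chromosome 5 segments dense in calls, and called partners. Genes named beside these were chosen after their values were seen. Alternatives used DESeq2 1.42.0 and limma 3.58.1 on log2(FPKM + 0.1) and log2(FPKM + 1). The edgeR step was run on simulated counts with the same dispersion for every gene and no library set apart. That run cannot show how the test behaves with replicates as unlike as these. Members matched 0 identifiers of the supplied RefSeq gene table, so no sequences are shown.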

Additional observations from a re-analysis of the deposited data

How the results depend on the processing

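The direction of both class medians held in 13 alternatives, from -0.20 to -0.10 for SET and from -0.20 to -0.09 for SNF2 genes. Counts of calls rested on single libraries. Leaving out 1 library gave 0 to 6 SET calls, 0 to 8 SNF2 calls and 401 to 4446 calls over all genes. Without A12 replicate 3, B46 replicate 1, B46 replicate 2 or B46 replicate 3 there were 0 calls in either class, and 401, 714, 432 and 1410 over all genes. Without A12 replicate 2 there were 1 SET and 0 SNF2 calls. The SET median moved to -0.10 without B46 replicate 1 and to -0.20 without B46 replicate 3, and the SNF2 median was -0.09 without A12 replicate 1. With the replicate block, 0 SET, 0 SNF2 and 967 genes in all were called, 4.25% of those tested. The numbers are not stated to pair the samples. Deviations of same-numbered libraries correlated at -0.12, -0.01 and 0.01, and no library correlated best with its own number. DESeq2 called 3 SNF2 genes and 3506 in all. limma on log2(FPKM + 0.1) and on log2(FPKM + 1) each called 1 SET and 0 SNF2 genes, and without a filter 0 and 0, with SUVR4 at an adjusted p of 0.051. Of the called members, SUVR4 was called in 6, ATX4 in 5 and CLASSY 1 in 4 of 13 alternatives. Over 20 named genes and 260 comparisons with the reported value, 221 kept direction and side of the threshold, 24 lost a call and 9 gained one. In 6 the sign turned. Leaving out 1 library gave -0.11 to 0.05 for PICKLE (0.04 without A12 replicate 3, 0.05 without B46 replicate 1, 0.03 without B46 replicate 2), -0.16 to 0.32 for DDM1 (Zm00004b010766; -0.16 without A12 replicate 2, -0.00 without A12 replicate 3) and -0.05 to 0.29 for ISWI (Zm00004b016880; -0.05 without A12 replicate 2). The cause of these changes was not tested. Depth limits the rarest tested members, the INO80 pair, the rarer CHR28 and an ATX4-like gene, which had 8 to 69 reads in a library.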

Other observations

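The members that did not pass the filter were nearly silent. Of 3 such SET genes, 1 had 0 reads in all 6 libraries and the SUVH1-like Zm00004b016982 and SUVH6-like Zm00004b033373 had 1 read each in all. Of 8 such SNF2 genes, 5 had 0 reads in all libraries. Among these 8 are 3 whose best protein match is no remodeler but a kinase or ESMERALDA 1, so that the SNF2 term rests on the Pfam entry alone, and 3 short SM3L1-like genes of 447, 480 and 1101 bases. The CLASSY 3-like gene Zm00004b022214 had 2, 1 and 5 reads in A12 and 0, 5 and 0 in B46, while its namesake Zm00004b030524 had 262 to 577 reads in A12 and 490 to 522 in B46.

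The 2 INO80-like genes lie on opposite strands of chromosome 9, 97679 bases apart, and each spans 14551 bases (133605180 to 133619730 and 133717410 to 133731960). By the mean over all 6 libraries they had the lowest levels of the tested members. They had 0.270 ± 0.0846 and 0.208 ± 0.0594 FPKM in A12 and 0.488 ± 0.295 and 0.237 ± 0.0316 FPKM in B46 (SD, n = 3 each). How reads that match both copies were counted is stated in none of the sources used here, and its part in these levels was not tested.

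Small heat shock genes summed over 41 genes to 77.6, 84.0 and 91.3 CPM in A12 and to 130, 214 and 546 CPM in B46, with 8 to 14 at 0 reads in a library. B46 replicate 3, the highest of these, was also the highest library for CLASSY 1. Between B46 replicates 1 and 2 the order was opposite, with CLASSY 1 at 9.82 and 8.29 CPM. What part the heat shock signal had in the CLASSY 1 value was not tested. Cyclins summed over 64 genes to 1820, 2320 and 2090 CPM in A12 and to 2000, 1950 and 1870 CPM in B46.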
